A study of Mus musculus with 18 samples.

Results

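Purkinje cells are the output neurons of the cerebellar cortex, and the levels of 7 genes by which they are recognised were followed here in 3 regions of the mouse brain. The genes were Pcp2, Car8, Itpr1, Ppp1r17, Skor2, Rgs8 and Rora, and they make up 7 of the 53468 genes counted. They were listed by symbol and not by a rule on their values, though earlier results of these data were known. Forebrain, midbrain and hindbrain were dissected at postnatal day 25 from 3 Fmr1CRE mice and 3 wild-type (WT) mice of the same litter. Fmr1CRE mice carry a single base change, knocked in with CRISPR/Cas9 on a C57BL/6 background, in a regulatory element assigned to Fmr1, and their coding sequence of Fmr1 was not edited. More than 1 such line was made, and the labels do not say from which of them these mice came, nor the sex of the mice. Each mouse gave 1 poly(A) RNA library per region, so that there were 18 libraries in 6 groups of 3. The question was whether the variant changed these genes in any region, and how far each gene marked the hindbrain, the region that holds the cerebellum.

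Purkinje cells receive excitatory input from the parallel fibres of cerebellar granule neurons and from climbing fibres, and they inhibit the deep cerebellar nuclei. Signalling through Gq activates phospholipase C, which produces inositol trisphosphate (IP3). IP3 opens the receptor Itpr1 on the endoplasmic reticulum and releases calcium, a step needed for long-term depression at parallel fibre synapses. Car8, a carbonic anhydrase relative without the enzyme activity, binds Itpr1 and lowers its affinity for IP3. Rgs8 and Pcp2 act on heterotrimeric G proteins of the Gi/o class, Rgs8 as a GTPase-activating protein and Pcp2 through a GoLoco motif. Ppp1r17 (the G-substrate) is phosphorylated by cGMP-dependent protein kinase and then inhibits protein phosphatases. Skor2 is a transcriptional corepressor needed for Purkinje cell differentiation, and Rora is the orphan nuclear receptor whose loss causes the staggerer phenotype. Itpr1, Rgs8 and Rora are also known from neurons outside the cerebellum, Rora among them from thalamic neurons.

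Counted reads came to 22455512 to 28061185 per library, and the values below are CPM (counts relative to the size of the library) after scaling by edgeR's TMM factors over all 18 libraries. All 18 pairs of libraries of the same group differed by more than sampling noise, with a chi-square of 12.2 to 63.9 per degree of freedom. Fmr1 itself lay between 63.5 and 78.8 normalized CPM in the Fmr1CRE libraries and between 51.1 and 83.4 in the WT libraries, and as the edit leaves its transcript intact this level does not check the labels. The regions matched their labels by the summed level of marker lists. A list of 8 forebrain excitatory neuron genes summed to 365 to 496 normalized CPM in forebrain and 12.1 to 17.9 in hindbrain, and a list of 12 brainstem genes to 4.80 to 18.1 in forebrain and 184 to 328 in hindbrain. The midbrain libraries held both, at 210 to 368 for the former, which overlapped with forebrain, and 23.9 to 93.0 for the latter. A list of 8 midbrain neuron genes summed to 72.0 to 178 in midbrain, 18.2 to 56.4 in hindbrain and 1.78 to 23.0 in forebrain. The libraries numbered 3 carry a limit. In every region 3 genes differed at least 8-fold between the mice numbered 3, with 50 or more normalized counts in the higher mouse. For all 3 genes the mouse that was higher in midbrain and hindbrain was the lower one in forebrain. A swap of the forebrain libraries cannot be told apart from a swap of both other regions. Forebrain results are therefore also given without the forebrain libraries numbered 3. The genotype results in midbrain and hindbrain and the interaction carry the same limit. They were refitted with single libraries or mice left out, but not with both of those numbered 3 left out.

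The stretches of 250 bases before annotated starts are shown for the members with an entry in RefSeq's promoter table, since Rora binds DNA at an AGGTCA half-site and the members differ in whether these letters lie there. The table held 3 of the 7 members with 8 starts between them, on assembly GRCm38.p6. The search was for AGGTCA and its reverse complement TGACCT, set in capitals below. The first line ends at the base before the most distal Pcp2 start (chr8:3625548-3625797, minus strand), the next before the Rora start (chr9:68653536-68653785, plus strand) and the last before the most distal Rgs8 start (chr1:153652787-153653036, plus strand).
Pcp2: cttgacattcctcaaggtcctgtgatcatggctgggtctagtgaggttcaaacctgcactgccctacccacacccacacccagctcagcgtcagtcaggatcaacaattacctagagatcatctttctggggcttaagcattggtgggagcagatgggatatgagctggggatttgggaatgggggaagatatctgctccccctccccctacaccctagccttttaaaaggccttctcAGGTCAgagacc
Rora: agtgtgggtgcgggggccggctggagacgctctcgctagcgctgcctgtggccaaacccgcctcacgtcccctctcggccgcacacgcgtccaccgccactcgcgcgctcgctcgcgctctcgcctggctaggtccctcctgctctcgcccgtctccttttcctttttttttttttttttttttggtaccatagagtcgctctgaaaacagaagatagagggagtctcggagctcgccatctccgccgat
Rgs8: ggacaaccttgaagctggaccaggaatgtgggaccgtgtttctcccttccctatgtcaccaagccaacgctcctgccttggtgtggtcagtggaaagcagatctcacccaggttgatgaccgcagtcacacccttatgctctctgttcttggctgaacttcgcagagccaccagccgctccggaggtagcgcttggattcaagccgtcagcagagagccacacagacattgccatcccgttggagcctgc

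The half-site stood in the Pcp2 window with its first base 12 bases before the start, on the strand of the gene. Of the other 3 Pcp2 starts, 2 also had it within 250 bases, 1 of them by overlap with the window printed. The start at base 3625036, which lies 13 bases from that of the leading transcript Pcp2-203, had a match of its own 26 bases upstream. The windows of Rora and of the distal Rgs8 start did not hold these letters, and of the 2 internal Rgs8 starts 1 did, at 136 bases. That internal start, at base 153665673, lies 36 bases from the start of the leading transcript Rgs8-202, whereas the distal start printed above lies 12672 bases from it. Across all 32851 windows of this length in the table, 14% held the half-site, so a match is a description of these letters and not of binding. Purkinje expression of Pcp2 is known to depend on Rora, which is why this motif was looked for.

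Pcp2 (ENSMUSG00000004630, chromosome 8 from 3623371 to 3625545, minus strand, GENCODE M21 on GRCm38) showed the sharpest region pattern. In hindbrain its level was 197, 113 and 164 normalized CPM in Fmr1CRE replicates 1, 2 and 3 and 238, 180 and 101 in WT replicates 1, 2 and 3. In midbrain it was 25.4, 55.4 and 30.1 in the same Fmr1CRE mice and 46.1, 65.8 and 90.9 in the WT mice. Every hindbrain library thus lay above every midbrain library. In forebrain Pcp2 had 9, 33 and 0 counts in the Fmr1CRE replicates and 0, 9 and 2 in the WT replicates, and 33 counts correspond to 1.36 normalized CPM. That forebrain library, Fmr1CRE replicate 2, also held the highest forebrain level of the granule neuron genes Gabra6, at 4.49, and Cbln3, at 7.74. The log2 fold change was 9.11 (standard error 0.52) for hindbrain against forebrain, 7.38 (0.51) for midbrain against forebrain and 1.72 (0.33) for hindbrain against midbrain. Their adjusted p values were 7.35e-10, 1.87e-07 and 0.00044. Without the Fmr1CRE mouse numbered 2 the first of these rose to 9.99, as the forebrain counts behind it are few. Exons of Pet100, on the opposite strand, overlap those of Pcp2, and whether the counting used strand is not given in the sources used here. Pet100 stood at 15.5 to 20.7 normalized CPM in the forebrain libraries in which Pcp2 was at 0 to 1.36.

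Car8 (ENSMUSG00000041261, chromosome 4 from 8143362 to 8239041, minus strand) followed the pattern of Pcp2, with a low level in forebrain as well. Its hindbrain level was 739, 315 and 532 normalized CPM in Fmr1CRE replicates 1, 2 and 3, and 519, 357 and 414 in the WT replicates. In midbrain it was 104, 264 and 136 in the Fmr1CRE mice and 163, 218 and 348 in the WT mice. Car8 was higher in hindbrain than in midbrain in 6 of 6 mice, yet the regions overlapped, since the highest midbrain value lay above the lowest hindbrain value. Forebrain held Car8 at a low and even level of 17.2 to 24.9, with a median of 19.6. The log2 fold changes were 4.57 (0.28) for hindbrain against forebrain, 3.33 (0.26) for midbrain against forebrain and 1.24 (0.24) for hindbrain against midbrain, with adjusted p values of 1.45e-09, 5.68e-07 and 0.00053.

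Itpr1 (ENSMUSG00000030102, chromosome 6 from 108213096 to 108551109, plus strand), the IP3 receptor that Car8 binds, had overlapping levels in the 3 regions. It was at 283, 547 and 459 normalized CPM in forebrain of Fmr1CRE replicates 1, 2 and 3 and at 489, 439 and 532 in WT forebrain. In midbrain it was at 399, 793 and 492 in Fmr1CRE mice and at 657, 698 and 684 in WT mice. In hindbrain it was at 839, 478 and 535 in Fmr1CRE mice and at 573, 405 and 418 in WT mice. Midbrain lay above forebrain in 6 of 6 mice as labelled. This count depends on the labels of the libraries numbered 3. Midbrain of Fmr1CRE replicate 3, at 492, lay below the forebrain library labelled WT replicate 3, at 532. The log2 fold changes were 0.23 (0.19, adjusted p = 0.325) for hindbrain against forebrain, 0.43 (0.19, adjusted p = 0.119) for midbrain against forebrain and -0.20 (0.19, adjusted p = 0.389) for hindbrain against midbrain. Single mice decided whether these were called. Without Fmr1CRE replicate 2 hindbrain was called higher than forebrain, at 0.40 with an adjusted p of 0.0484, and without Fmr1CRE replicate 1 hindbrain was called lower than midbrain, at -0.45 with an adjusted p of 0.017. Within WT mice alone hindbrain was lower than midbrain, by -0.53 with an adjusted p of 0.0125, and within Fmr1CRE mice alone the difference was 0.18 with an adjusted p of 0.719. The test of whether genotype changed the region differences of Itpr1 gave an adjusted p of 0.707.

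Rgs8 (ENSMUSG00000042671, chromosome 1 from 153653025 to 153700323, plus strand), the G protein regulator, rose in steps from forebrain to hindbrain. In forebrain it was at 74.1, 112 and 124 normalized CPM in Fmr1CRE replicates 1, 2 and 3 and at 117, 118 and 124 in the WT replicates. In midbrain the Fmr1CRE mice had 194, 295 and 215 and the WT mice 272, 296 and 350. In hindbrain the Fmr1CRE mice had 559, 275 and 437 and the WT mice 441, 299 and 311. Forebrain did not overlap with either other region, whereas midbrain and hindbrain overlapped and hindbrain was the higher in 4 of 6 mice. The log2 fold change was 1.79 (0.18, adjusted p = 3.94e-07) for hindbrain against forebrain, 1.27 (0.17, adjusted p = 0.00013) for midbrain against forebrain and 0.52 (0.17, adjusted p = 0.0184) for hindbrain against midbrain. The last of these missed the threshold without any 1 of the Fmr1CRE mice numbered 1 or 3 or the WT mouse numbered 1, with adjusted p values of 0.0872, 0.0717 and 0.14, and in WT mice alone, where the log2 fold change was 0.21 with an adjusted p of 0.317.

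Ppp1r17 (ENSMUSG00000002930, chromosome 6 from 56017497 to 56032689, plus strand), the phosphatase inhibitor, separated all 3 regions without overlap. Hindbrain held 77.4, 30.7 and 56.6 normalized CPM in Fmr1CRE replicates 1, 2 and 3 and 68.9, 51.6 and 41.4 in the WT replicates. Midbrain held 11.9, 29.4 and 13.4 in the Fmr1CRE mice and 19.4, 27.3 and 29.9 in the WT mice. Forebrain held 0.391 to 1.33, with a median of 0.892, from 10 to 33 counts. The log2 fold changes were 5.98 (0.35) for hindbrain against forebrain, 4.65 (0.34) for midbrain against forebrain and 1.33 (0.27) for hindbrain against midbrain, with adjusted p values of 1.03e-09, 3.36e-07 and 0.00064.

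The transcription regulators Skor2 and Rora differed in how far they marked a region. Skor2 (ENSMUSG00000091519, chromosome 18 from 76856405 to 76900342, plus strand) was rare, with 36 to 81 counts in a hindbrain library, 8 to 47 in a midbrain library and 0 to 3 in a forebrain library. Its hindbrain level was 2.84, 1.84 and 1.85 normalized CPM in Fmr1CRE replicates 1, 2 and 3 and 2.30, 2.67 and 1.42 in the WT replicates. Its midbrain level was 0.326, 1.48 and 0.482 in Fmr1CRE mice and 1.26, 1.92 and 1.27 in WT mice. Skor2 was higher in hindbrain than in midbrain in 6 of 6 mice, with a log2 fold change of 1.01 (0.38, adjusted p = 0.0372). That call was lost without any 1 of 5 of the 6 mice, the exception being Fmr1CRE replicate 2. Against forebrain the fitted log2 fold changes were 5.62 (0.57, adjusted p = 5.69e-07) for hindbrain and 4.60 (0.59, adjusted p = 7.07e-05) for midbrain, and both rest on 6 forebrain counts in all, so that their size depends on how such counts are smoothed.

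Rora (ENSMUSG00000032238, chromosome 9 from 68653786 to 69388246, plus strand) varied least of all members among the libraries of hindbrain, with a coefficient of variation of 7.99%, and among those of midbrain, with 8.53%. It was at 174, 142 and 171 normalized CPM in hindbrain of Fmr1CRE replicates 1, 2 and 3 and at 181, 165 and 171 in WT hindbrain. Midbrain held 151, 146 and 132 in Fmr1CRE mice and 120, 145 and 148 in WT mice. Forebrain varied more widely, with 104, 81.5 and 132 in Fmr1CRE mice and 129, 169 and 111 in WT mice. Rora was higher in hindbrain than in forebrain, by a log2 fold change of 0.48 (0.12, adjusted p = 0.0029), in 5 of 6 mice. In WT mice alone this was 0.34 with an adjusted p of 0.0918. For hindbrain against midbrain the log2 fold change was 0.25 (0.12, adjusted p = 0.0851), and for midbrain against forebrain 0.22 (0.12, adjusted p = 0.202). The former was called, at 0.33 with an adjusted p of 0.0384, when libraries were scaled by total counts alone, and at 0.30 with an adjusted p of 0.0389 when genes needed at least 10 counts in every library.

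**Figure D1:**
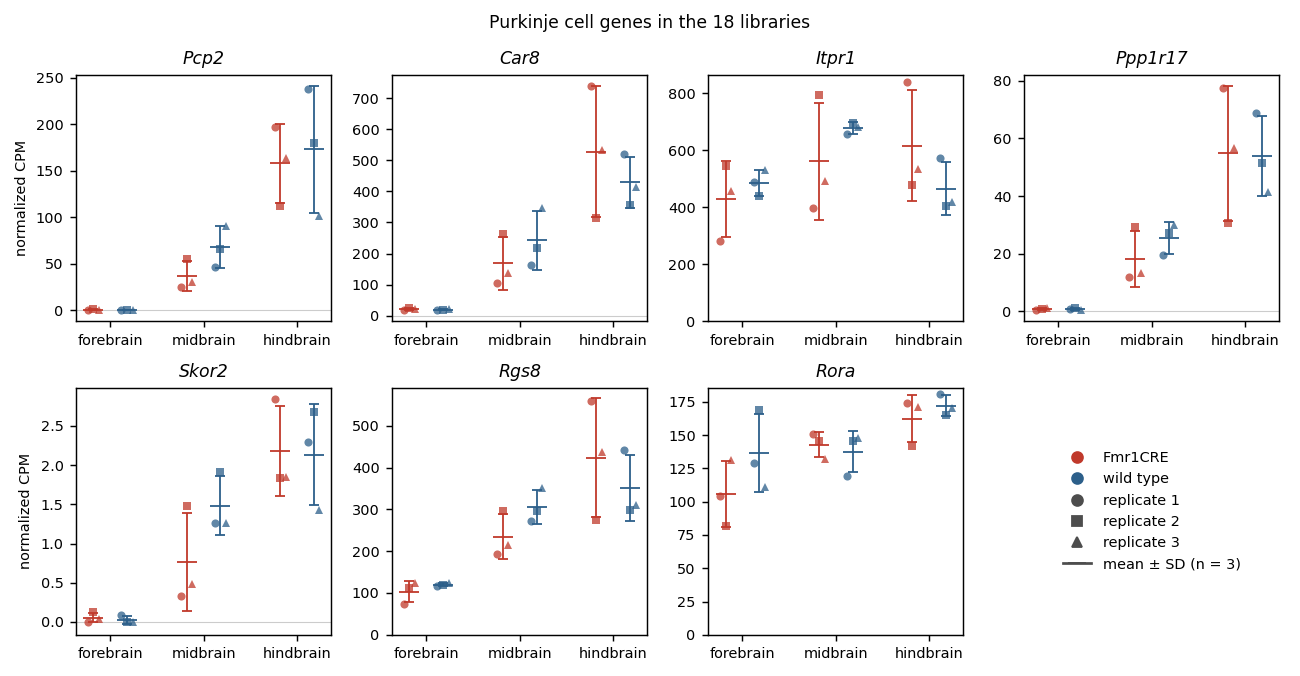
Normalized CPM (vertical axes, each from 0 and with a scale of its own) of the 7 genes in the 18 libraries by region, with Fmr1CRE mice in red and WT mice in blue, a symbol for each replicate number, and bars for the mean and SD of 3 libraries. Pcp2 and Ppp1r17 separate hindbrain, midbrain and forebrain without overlap, Itpr1 overlaps in all 3 regions, and the genotypes overlap in each panel and region.

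Read across the members, 6 of 7 were called higher in hindbrain than in forebrain at an adjusted p under 0.05 from edgeR's quasi-likelihood test, against 25.3% of all 20363 genes tested called higher and 26.4% called lower. For midbrain against forebrain 5 of 7 were called higher, where 9.96% of all genes were higher and 9.38% lower. For hindbrain against midbrain 5 of 7 were called higher, where 24% of all genes were higher and 25.1% lower. With all mice in the fit no member was called lower in hindbrain than in either other region. Pcp2 and Skor2 had too few counts to pass the filter in forebrain alone. They entered the region tests through the regions in which they were higher. With at least 10 counts required in every library neither was tested, and 4 members were called for hindbrain against forebrain. Without Fmr1CRE replicate 2, Itpr1 was added and 7 of 7 were called higher in hindbrain than in forebrain. Without the forebrain libraries numbered 3, the counts of members against forebrain stayed at 6 and 5. Hindbrain against midbrain fell to 3 of 7 without WT replicate 1 and to 3 of 7 without Fmr1CRE replicate 3. Without Fmr1CRE replicate 1, Rgs8 and Skor2 lost their calls as well, and Itpr1 was called lower in hindbrain than in midbrain. In a bulk sample fewer Purkinje cells and less RNA of a gene per cell cannot be told apart. The regions of a mouse were taken as independent here, and with the mouse as a block the members called were 6, 5 and 5 of 7.

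**Figure D2:**
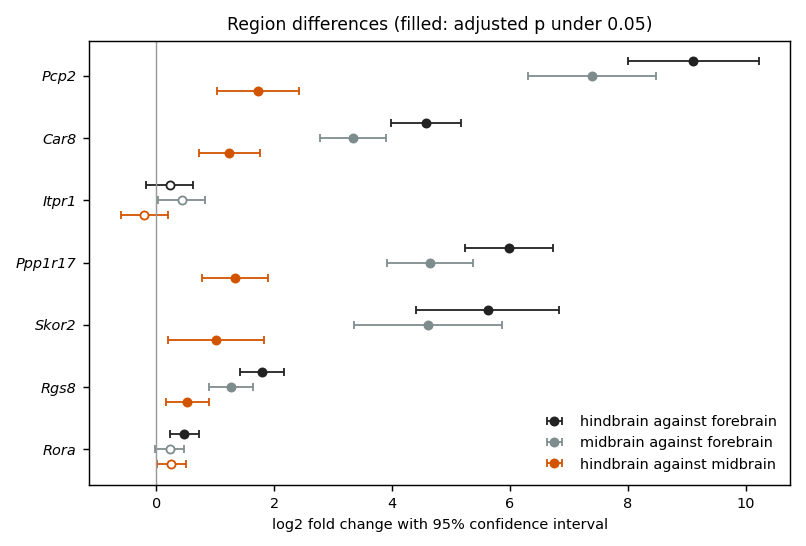
Log2 fold changes (horizontal axis) of the 7 genes for hindbrain against forebrain (black), midbrain against forebrain (grey) and hindbrain against midbrain (orange), with 95% confidence intervals and filled points where the adjusted p is under 0.05. Pcp2 has the largest differences against forebrain, at 9.11 and 7.38, and the intervals of Itpr1 for hindbrain against both other regions include 0.

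Levels of different genes were compared per length, as mean normalized CPM per kilobase of the effective length that salmon used. On this scale Pcp2, whose effective length is 334 bases, was the highest member in hindbrain at 495, followed by Car8 at 155, Itpr1 at 113, Rgs8 at 88.9, Ppp1r17 at 41.3, Rora at 20.7 and Skor2 at 0.492. The order was another one in forebrain, where Itpr1 led at 96.0 per kilobase, before Rgs8 at 25.6, Rora at 15.0 and Car8 at 6.50. Pcp2 stood at 1.08 there, Ppp1r17 at 0.652 and Skor2 at 0.00967. In midbrain the levels per kilobase were 156 for Pcp2, 130 for Itpr1, 66.4 for Car8, 62.1 for Rgs8, 17.3 for Rora, 16.6 for Ppp1r17 and 0.256 for Skor2.

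The estimates per transcript were used over all sets together, since most sets were not closest to the library of their own record. Each set was closest to a different library, but shares by region were not taken. Pcp2-203 made up a median of 73% of the Pcp2 transcripts, with a range of 68.0% to 89.0% over the 13 sets in which the gene reached 1 TPM. Rora-201 made up 89.7% and Rgs8-202 68% of their genes. Itpr1 was spread most widely, with 38.5% on Itpr1-205 and 22.9% on a short model of 454 bases. Car8 and Ppp1r17 have a single annotated transcript each.

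The 6 mice differed among themselves in how the members were divided between midbrain and hindbrain. The midbrain level of Pcp2 was 12.9%, 49.2% and 18.4% of the hindbrain level of the same mouse in Fmr1CRE replicates 1, 2 and 3, and 19.4%, 36.6% and 89.6% in WT replicates 1, 2 and 3. For Car8 the same shares were 14.1%, 83.7% and 25.6% in Fmr1CRE mice and 31.4%, 61.0% and 83.9% in WT mice. Both genotypes thus held mice with a low share and mice with a high one. Ppp1r17 ran from 15.4% to 95.6%, Skor2 from 11.5% to 89.0% and Rgs8 from 34.6% to 113%, and in all 5 of these genes Fmr1CRE replicate 1 had the lowest share. Itpr1 ran from 47.6% in that mouse to 172%. Rora was the exception, with shares of 66.2% to 103% and the lowest in WT replicate 1. In midbrain the order of the mice was much the same from member to member, as Fmr1CRE replicate 1 was the lowest and Fmr1CRE replicate 3 the next lowest for all members but Rora.

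Of the markers of other cells, those of granule neurons moved in the same way. The 12 granule neuron genes, summed, had a midbrain level of 24.2%, 99.7% and 39.9% of hindbrain in Fmr1CRE replicates 1, 2 and 3, and 40.2%, 76.4% and 85.3% in WT replicates 1, 2 and 3. The 12 brainstem genes gave 19.7%, 7.28% and 24.2% in the Fmr1CRE mice and 45.1%, 40.2% and 18.2% in the WT mice, and this order was not that of the members. Within a library Pcp2 was 9.62% to 16.4% of the granule sum in hindbrain and 4.97% to 10.3% in midbrain, lower in midbrain in 5 of 6 mice. The ratio of the CPM of Car8 to that of Pcp2 was 1.99 to 4.08 in hindbrain and 3.32 to 4.76 in midbrain. That of Itpr1 to Car8 was 1.0 to 1.52 in hindbrain and 1.97 to 4.02 in midbrain, without overlap. Where the dissection cut ran in each mouse is not given in the labels, and its part in these shares was not tested.

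**Figure D3:**
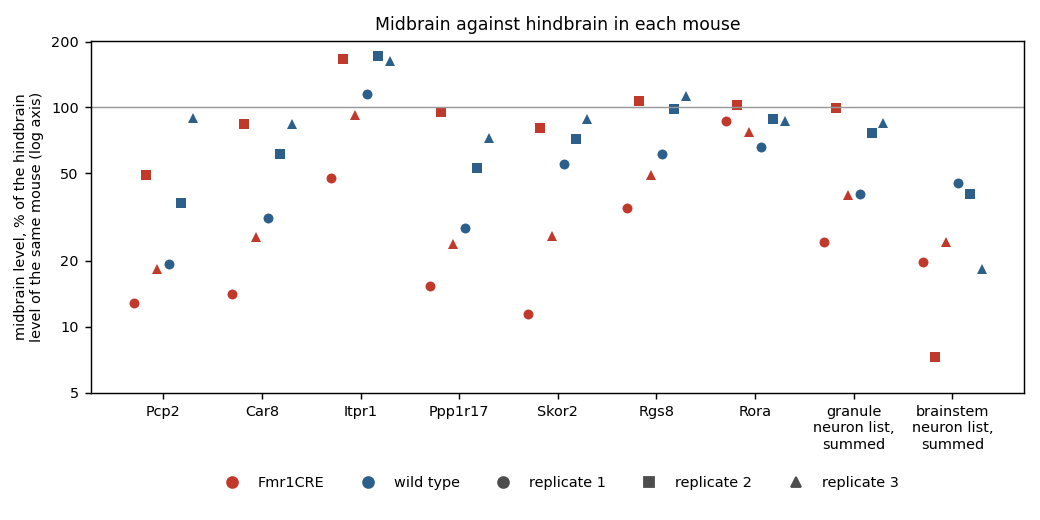
Midbrain level as a percent of the hindbrain level of the same mouse (vertical log axis) for the 7 genes and for the summed granule neuron and brainstem lists, with 1 point per mouse, Fmr1CRE in red and WT in blue, and a symbol for each replicate number. Fmr1CRE replicate 1 is lowest for all members but Rora, and the granule list spreads from 24.2% to 99.7% while Rora stays between 66.2% and 103%.

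Fmr1CRE and WT mice did not differ in any member at an adjusted p under 0.05. By edgeR's quasi-likelihood test 0 of the 5 members tested in forebrain, 0 of 7 in midbrain and 0 of 7 in hindbrain were called, and Pcp2 and Skor2 had too few counts to be tested in forebrain. Of all genes tested, 0% were called in forebrain, 0.00543% in midbrain and 0% in hindbrain. Unadjusted p values under 0.05 were found for 0, 1 and 0 members and for 1002, 1135 and 981 of all genes. DESeq2 called 0 members in each region, and 31, 62 and 59 of all genes. In all 21 pairs of a member and a region, the 2 untested ones included, the values of the genotypes overlapped. Among all genes tested the genotypes did not overlap for 10.3% in forebrain, 11.3% in midbrain and 10.9% in hindbrain, so that overlap was the usual case and says nothing particular about the members. With 3 mice per genotype these counts do not show that the levels are alike, and the intervals below give what differences the data leave room for.

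In hindbrain Pcp2 was at 158 ± 42.6 normalized CPM (SD, n = 3) in Fmr1CRE mice and 173 ± 68.4 (SD, n = 3) in WT mice. Its log2 fold change was -0.15 with a 95% confidence interval of -0.88 to 0.59 and an adjusted p of 0.961. Car8 was at 529 ± 212 and 430 ± 82.2 (SD, n = 3), a log2 fold change of 0.29 with an interval of -0.39 to 0.96. Itpr1 had the largest difference in hindbrain, 617 ± 194 against 465 ± 93.2 (SD, n = 3), a log2 fold change of 0.40 with an interval of -0.15 to 0.94. Rgs8 had 0.26 (-0.35 to 0.88), Ppp1r17 0.014 (-0.75 to 0.77), Skor2 0.019 (-0.74 to 0.78) and Rora -0.092 (-0.36 to 0.18). The adjusted p values in hindbrain ran from 0.88 to 0.996. The intervals of all 7 members excluded a change of 1 on the log2 scale in either direction, and that of Rora was the narrowest.

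In midbrain the estimates of 6 members were below 0 and that of Rora was 0.053 with an interval of -0.21 to 0.32. Pcp2 was at 37.0 ± 16.2 normalized CPM in Fmr1CRE mice and 67.6 ± 22.5 in WT mice (SD, n = 3). Its log2 fold change was -0.88 with an interval of -1.66 to -0.093, an unadjusted p of 0.0329 and an adjusted p of 0.805. With single libraries left out it lay between -1.29 and -0.60, and the unadjusted p was over 0.05 without 4 of the 6 libraries, Fmr1CRE replicates 1 and 3 and WT replicates 2 and 3. Skor2 had -0.95 (-2.17 to 0.28), Car8 -0.54 (-1.44 to 0.35), Ppp1r17 -0.49 (-1.30 to 0.31), Rgs8 -0.39 (-0.79 to 0.015) and Itpr1 -0.28 (-0.80 to 0.24). Fmr1CRE replicate 2, with 55.4 normalized CPM of Pcp2, lay among the WT values of 46.1 to 90.9. The midbrain libraries numbered 3 held 30.1 in the Fmr1CRE mouse and 90.9 in the WT mouse. Their labels, in doubt as said above, were taken as given in these estimates.

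The summed levels of other marker lists also varied among the midbrain libraries. The 8 hypothalamic genes summed to 125, 88.4 and 47.4 normalized CPM in Fmr1CRE replicates 1, 2 and 3 and to 20.7, 8.82 and 7.09 in WT replicates 1, 2 and 3, with at most 1 of the 8 at 0 in any of these libraries. Of the 8, 7 had an unadjusted p under 0.05, and edgeR called 0 and DESeq2 4 of them after adjustment. The 8 striatal genes summed to 262 to 489 in Fmr1CRE midbrain and 190 to 225 in WT midbrain, the 12 brainstem genes to 23.9 to 56.9 and 51.5 to 93.0, and the 12 granule genes to 497 to 1013 and 582 to 959. Granule neuron genes thus overlapped between genotypes as the members did, with a median log2 fold change of -0.24. The part of these differences in the midbrain values of the members was not tested.

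In forebrain the 5 members tested had log2 fold changes of 0.24 for Car8 (-0.087 to 0.56), 0.051 for Ppp1r17 (-1.07 to 1.18), -0.15 for Itpr1 (-0.65 to 0.35), -0.18 for Rgs8 (-0.58 to 0.21) and -0.34 for Rora (-0.82 to 0.14). Rora was at 106 ± 25.1 normalized CPM in Fmr1CRE mice and 136 ± 29.4 in WT mice (SD, n = 3). Without the libraries numbered 3, its log2 fold change was -0.63 with an adjusted p of 0.313, and that of Ppp1r17 turned to -0.49 with an adjusted p of 0.668. Those of Car8, Itpr1 and Rgs8 were 0.34, -0.11 and -0.29.

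Summed marker levels also varied among the forebrain libraries, and the median estimate for hypothalamic genes lay on the other side of 0 than in midbrain. The 8 hypothalamic genes summed to 6.87, 15.2 and 68.3 normalized CPM in forebrain of Fmr1CRE replicates 1, 2 and 3 and to 90.4, 104 and 55.5 in WT replicates 1, 2 and 3, with 0 of the 8 at 0 in any of them. Of the 7 tested, edgeR and DESeq2 called 0 and 1 had an unadjusted p under 0.05, with a median log2 fold change of -1.41. The 6 thalamic genes summed to 253, 123 and 320 in the Fmr1CRE mice and to 239, 279 and 222 in the WT mice, and the library with the lowest sum, Fmr1CRE replicate 2, was also the lowest in Rora. The Bergmann glia and cerebellar interneuron list summed to 603 to 815 in Fmr1CRE forebrain and 865 to 1047 in WT forebrain. In this list Slc1a3 alone was at 442 to 839 over the forebrain libraries of both genotypes. Of its 8 genes edgeR called 0 between genotypes in forebrain. Genotypes did not overlap for 10.3% of all single genes tested there. The part of these differences in the forebrain values of the members was not tested.

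Whether the genotype difference itself differed between the regions was tested as an interaction over all 18 libraries. It was called for 0 of 7 members by edgeR, for 0 at an unadjusted p under 0.05 and for 0% of all 20363 genes. DESeq2 called it for 0 of the members and for 52 genes in all, and 1535 genes had an unadjusted p under 0.05 in edgeR. Its adjusted p values ran from 0.678 for Pcp2 to 0.867 for Ppp1r17.

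**Figure D4:**
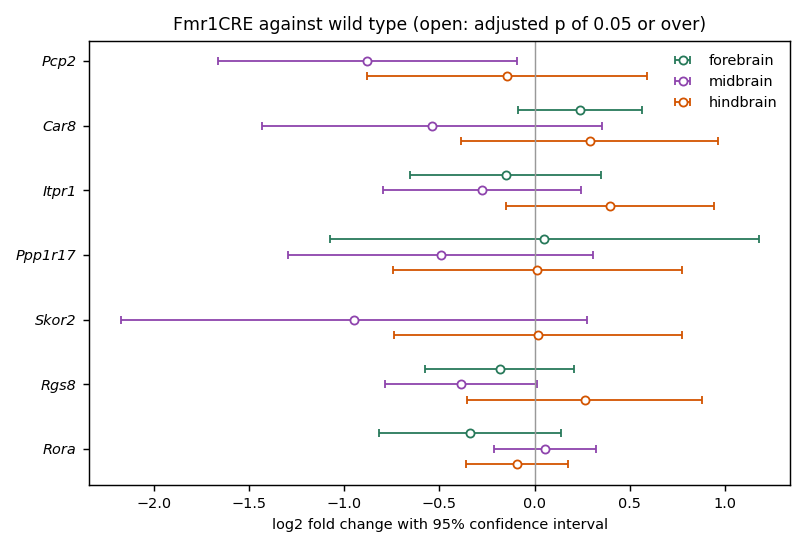
Log2 fold changes of Fmr1CRE against WT mice (horizontal axis) for the 7 genes in forebrain (green), midbrain (purple) and hindbrain (orange) with 95% confidence intervals, Pcp2 and Skor2 being untested in forebrain. Open points throughout show adjusted p values of 0.05 or over, and of the 19 intervals only that of Pcp2 in midbrain, -1.66 to -0.093, does not include 0.

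Of 25 further genes listed for Purkinje cells, 18 were called higher in hindbrain than in forebrain, 3 lower and 4 not called. Their median log2 fold change was 1.10, beside 0.0085 for all genes tested. Aldoc (zebrin II), which marks alternating stripes of Purkinje cells and is also an astrocyte enzyme, had 0.75. Pvalb, a calcium buffer of Purkinje cells and of interneurons, had 3.36 and Calb1, another calcium buffer, 1.36. Pcp4, a calmodulin regulator, had 0.17 with an adjusted p of 0.228. Among the lower ones were Foxp2, a transcription factor, with -1.5 and Ryr1, a calcium release channel, with -1.04. For hindbrain against midbrain 12 of the 25 were higher, 5 lower and 8 not called, and for midbrain against forebrain 17, 1 and 7. Of all genes tested, 25.3% were called higher and 26.4% lower in hindbrain than in forebrain. The shares were 24% and 25.1% for hindbrain against midbrain, and 9.96% and 9.38% for midbrain against forebrain. The 5 of 25 called lower against midbrain came near to the 25.1% of all genes. Between genotypes edgeR called 0 of the 25 in any region, with 1, 5 and 5 at an unadjusted p under 0.05 in forebrain, midbrain and hindbrain, and DESeq2 called 0, 0 and 2.

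The IP3 and calcium pathway around Itpr1 was on balance lower in hindbrain. Of 17 such genes 3 were higher than in forebrain, 12 lower and 2 not called, with a median log2 fold change of -0.74. Ahcyl1 (IRBIT), which competes with IP3 for Itpr1, had 0.29, the calcium pump Atp2a2 -0.66, the plasma membrane pump Atp2b2 -1.23 and Ahcyl2 0.04 with an adjusted p of 0.814. The others that were higher were Itpkb, an IP3 kinase, with 1.11 and the receptor Itpr3, with 0.53. Against midbrain 1 of the 17 was higher, 12 lower and 4 not called. Of all genes tested, 25.3% were called higher and 26.4% lower against forebrain, and 24% and 25.1% against midbrain. Itpr1, with 0.23 for hindbrain against forebrain, lay above the median of these genes and below Car8, with 4.57.

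Relatives of the members followed other patterns. Of 18 genes from the same families or with the same partners, 4 were higher in hindbrain than in forebrain, 12 lower and 2 not called. Of all genes tested, 25.3% were called higher, to which the 4 of 18 came near, and 26.4% lower. Car2, the carbonic anhydrase of oligodendrocytes, had 0.98, Rgs7bp -0.94, Rgs4 -2.46 and Car10 -0.28. Also higher were Skor1, the closest relative of Skor2, with 5.17 and Gpsm1, which carries GoLoco motifs as Pcp2 does, with 0.67. Rorb, the relative of Rora known from cortical layer 4 neurons, was among the lower ones, with -1.58. Of 5 genes known as Rora targets, 2 of them members, 2 were higher in hindbrain than in forebrain and 3 not called, and the target Slc1a6, a glutamate transporter of Purkinje cells, had 2.69 while Shh had 0.22 with an adjusted p of 0.194.

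Among the marker lists of other cells, 11 of 12 granule neuron genes were higher in hindbrain than in forebrain. Zic1 had 2.09, Cbln3 6.75, Gabra6 8.58 and Cbln1 3.73, and Gabrd alone was lower, with -0.58. Of the others, 10 of 12 brainstem, 6 of 6 oligodendrocyte and 4 of 6 choroid plexus genes were higher and 0 lower. Bergmann glia and cerebellar interneuron genes were higher for 5 of 8 and lower for 1, and midbrain neuron genes higher for 4 of 8 and lower for 1. Thalamic genes were higher for 2 of 6 and lower for 2, and hypothalamic genes higher for 2 of 8 and lower for 4. All 8 striatal and all 8 forebrain excitatory neuron genes were lower. Beside these stand the 25.3% of all genes called higher and the 26.4% called lower, which the shares of thalamic and hypothalamic genes called higher came near to. The hindbrain in which the members were measured thus held cerebellar, brainstem and glial RNA together.

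The genes whose log2 CPM was most like that of a member over the 18 libraries were found among 20301 others, as a description in which all libraries share regions and depth. For Pcp2 they were Cbln3 (Pearson r = 0.99), Cnpy1 (0.99) and Gabra6 (0.99), of which Cbln3 and Gabra6 are granule neuron genes. Car8 was closest to Gm13944 (0.99), Sycp1 (0.99) and Crtam (0.99), Ppp1r17 to Barhl2 (0.99), Gm13944 (0.99) and Cbln1 (0.99), and Skor2 to Hes3 (0.98), Gm13944 (0.98) and Trim67 (0.98). Rgs8 was closest to Inpp5a (0.98), a phosphatase that removes IP3, Homer3 (0.97), a postsynaptic scaffold protein that binds Itpr1, and Cep76 (0.97). Itpr1 had weaker partners, Cnr1 (0.86), Gas1 (0.84) and Xkr7 (0.81), as did Rora, with Apmap (0.91), Gm1821 (0.90) and Gm12462 (0.90).

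Within the 6 hindbrain libraries alone the members did not all follow each other. Car8 and Rgs8 had a Pearson r of 0.98 on the log2 scale and Car8 and Itpr1 of 0.87, whereas Pcp2 had 0.59 with Car8 and 0.54 with Itpr1, and Skor2 had 0.41 with Car8. In the 6 midbrain libraries Pcp2 had 0.96 with Car8, 0.99 with Rgs8 and 0.84 with Itpr1, while Rora had between -0.07 and 0.25 with the other 6. Closest to the mean of the 7 members over the hindbrain libraries were Gm13944 (0.995), Asf1a (0.99), Iltifb (0.99), Gm24307 (0.99), Zfp583 (0.99), Polr1b (0.99), Ntn4 (0.98), 9830132P13Rik (0.98), Car4 (0.98) and Neurod1 (0.98). With 6 libraries and 20301 genes a high r is weak as a description, and Gm24307, at 0.217 to 1.49 normalized CPM, and 9830132P13Rik, at 0.108 to 0.533, were near their detection limit. Gm13944 was at 1.91 to 5.15 in hindbrain and at 0 to 0.0412 in forebrain, and Neurod1, a granule neuron gene, at 59.1 to 153 in hindbrain.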

How the data were processed

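Poly(A) RNA of 18 mouse brain libraries, 1 per mouse and region, was read as single-end 50-base reads. The authors quantified transcripts with Salmon 0.14.0 against mm10 in the bcbio pipeline, imported them for DESeq2 1.30.1, per the labels and the methods, and deposited gene counts as whole numbers that were not normalized. The expected counts and TPM per transcript were deposited as 18 sets. Only 2 of the 18 sets were closest to the library of their own record, so the deposited expected counts, TPM and lengths were used pooled. The deposited log2 values (variance-stabilized) were not used here. Unused count columns numbered 0.

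Symbols and positions came from GENCODE M21, which named 53363 of 53468 genes. Counts were tested with edgeR 4.0.16 in R 4.3.3 (TMM, filterByExpr, quasi-likelihood test, Benjamini-Hochberg over all genes tested, at 0.05): genotypes within each region over 6 libraries, and regions and the interaction over all 18. DESeq2 1.42.0, other scalings, filters, sample sets, blocks and left-out libraries were alternatives, with limma 3.58.1 loaded by edgeR. Fits were tested on simulated data. Totals were 22455512 to 28061185 counts, and mouse-to-mouse spread set the precision. With 3 mice against 3 an exact permutation test cannot go below 0.1. The log2 CPM used for likeness had a prior count of 2. The regions pair by mouse, since the labels give the animal, and deviations from group means of the same mouse in other regions correlated at -0.17 to 0.18. Across genotypes a replicate number is only a number.

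The members and lists were chosen with earlier results of these data known. Named were the members, up to 4 genes per list by hindbrain level plus those moving against most of their list, the 3 genes most like each member over 18 libraries and the 10 most like the mean of the members in hindbrain. Some items were added after their values were seen. They are genes whose correlation is quoted beside another member, Rorb, Pet100, Fmr1 and the hypothalamic, striatal, thalamic, midbrain neuron and Bergmann glia sums. Single values of some list genes are not reported here, and the counts cover the whole lists.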

Additional observations from a re-analysis of the deposited data

How the results depend on the processing

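Members called, in either direction, kept within 1.5 times the number reported in 92 of 96 refits of the counts. These refits include the genotype and interaction counts, which were 0 in the main fit and 0 in every refit. The 4 refits outside that range were region comparisons. Hindbrain against forebrain ran from 4 to 7 members, hindbrain against midbrain from 3 to 6 and midbrain against forebrain from 3 to 5. Hindbrain against midbrain gave 3 to 5 members with a mouse left out, and midbrain against forebrain gave 3 with at least 10 counts in every library, where Pcp2 and Skor2 were no longer tested, and 3 in the 9 Fmr1CRE libraries alone, where fewer samples were fitted. Of 553 refits of single members, 511 kept direction and side of the threshold and 23 changed direction, all of the latter in differences that had not been called. With libraries or mice left out, genotype differences ran from -0.37 to 0.061 for Itpr1 and from -0.28 to 0.53 for Ppp1r17 in forebrain, from -0.047 to 0.11 for Rora in midbrain, and in hindbrain from -0.42 to 0.17 for Pcp2, -0.033 to 0.56 for Car8, -0.32 to 0.31 for Ppp1r17, -0.22 to 0.22 for Skor2 and -0.15 to 0.0036 for Rora. Itpr1 ran from -0.029 to 0.40 for hindbrain against forebrain and from -0.45 to 0.028 for hindbrain against midbrain. Total counts alone moved the median of all genes to 0.15 for hindbrain against forebrain and 0.11 for hindbrain against midbrain, and with them Ppp1r17 and Skor2 differed between genotypes in hindbrain by -0.0046 and -0.0056. Itpr1 was at -0.055 for hindbrain against forebrain in WT mice alone and at 0.18 against midbrain in Fmr1CRE mice alone, and Ppp1r17 in forebrain at -0.49 without the libraries numbered 3. The cause was not tested.

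With the mouse as a replicate block, region comparisons called 6, 5 and 5 members as before, and with the replicate number as a block the genotype comparisons called 0. The replicate block turned Ppp1r17 in hindbrain to -0.049 and changed no call of a member. Same-numbered libraries of both genotypes correlated at -0.12 to 0.069 in their deviations from the group means.

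Depth limits Skor2, with at most 81 counts in a library, and Pcp2 in forebrain, with at most 33. Where counts are 0, up to 3 counts per library remain possible, for counting error alone. Effective lengths were pooled over regions, which affects levels per length but no fold change.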
